A study of Mus musculus with 9 samples.

Results

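Regulatory T cells restrain other lymphocytes, and 8 genes that mark them or serve them were followed here among the 46517 genes of a bulk RNA sequencing table. The genes were taken by symbol, and each had 1 row: Foxp3, Il2ra, Il2rb, Ikzf2, Ikzf4, Tnfrsf18, Tnfrsf4 and Lrrc32. The samples came from C57BL/6 mice older than 18 months. Wild-type mice numbered 1, 4 and 5 gave 3 spleens. Mice of the line plckGAPDH gave 4 spleens and, from animals 455 and 508, 2 lymph nodes. The series holds no wild-type lymph node, so the lymph nodes differ from the wild-type spleens in both tissue and genotype. In this line the Lck promoter, active in the T cell lineage, drives a transgene of Gapdh, and the labels describe its mice as developing tumours. Animal 508 gave both a spleen and a lymph node, and 1 plckGAPDH spleen whose column bears no animal number is called the unnumbered spleen. Its link to an animal could not be settled: 1 plckGAPDH spleen title was left without a column, but the column name does not give that animal. Nothing says how replicates were raised, so p-values cover only the spread between these samples, which may be partly technical. RNA was taken from whole splenocytes, so no cell type was isolated.

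Foxp3 encodes the transcription factor that defines regulatory T cells. Il2ra (CD25) and Il2rb (CD122) are the alpha and beta chains of the interleukin-2 receptor, through which these cells receive a survival signal made mostly by other T cells. Ikzf2 (Helios) and Ikzf4 (Eos) are zinc finger factors of the Ikaros family, Tnfrsf18 (GITR) and Tnfrsf4 (OX40) are costimulatory receptors of the tumour necrosis factor receptor family, and Lrrc32 (GARP) holds latent transforming growth factor beta on the cell surface. Of these, Foxp3 is the most restricted in the mouse: Il2rb is also made by natural killer cells and CD8 T cells, Tnfrsf4 and Tnfrsf18 by activated helper T cells, and Lrrc32 by platelets and endothelium.

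Levels are given in FPKM, which corrects fragment numbers for the length of the gene and the size of the library. The estimated depth ran from 24200000 (spleen 508) to 34400000 fragments (spleen 547). T cell and B cell genes were found in all 9 libraries. The 12 T cell markers summed to 464 to 819 FPKM in wild-type spleens, 187 to 1306 in plckGAPDH spleens and 152 to 308 in the lymph nodes. The 7 B cell markers summed to 343 to 1778, 493 to 934 and 297 to 381 FPKM, and 2 of them, Cr2 and Fcer2a, fell between the spleens (-5.44 and -4.05 on the log2 scale, limma FDR 0.00169 and 0.0136). With no filter neither was called (0.0782 and 0.221), and Fcer2a was not with median-of-ratios scaling (0.106) or when spleen 5 of the wild type (0.0823), or spleens 4 and 5 together (0.293), were left out. Gapdh was at 299 to 348 FPKM in wild-type spleens and 430 to 894 in plckGAPDH spleens. In the lymph nodes it was at 554 (455) and 312 FPKM (508), the latter within the wild-type range. The wild-type spleens differed in content: Hbb-bs, a globin gene, was at 33216 FPKM in spleen 5 and 0.170 to 808 elsewhere, S100a8, of neutrophils, was at 1.37 in spleen 4 and 14.3 to 1162 elsewhere, and Xist, of the inactive X chromosome, was at 0.09 in spleen 5 and 31.2 to 59.7 elsewhere.

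Across the members, the transgenic spleens did not move as 1 group. Foxp3, Il2ra and Lrrc32 were low in most or all of them, while Ikzf2, Tnfrsf4, Tnfrsf18 and Il2rb ran from the lowest to the highest level of the spleens. The unnumbered spleen was the highest library for those 4 members, and plckGAPDH spleen 547 was the lowest of all 9 libraries for 6 of the 8 members, with a tie for Ikzf4; the exceptions were Il2rb and Tnfrsf18. The libraries were compared with limma on log2(FPKM + 1), with Benjamini-Hochberg adjustment over all genes tested (FDR, called under 0.05). Of the 8 members, 6 reached the filter of 1 FPKM in 3 spleens, and Ikzf4 and Lrrc32 did not. None of the 6 was called between the genotypes with limma, where 1.44% of 12607 genes were called in either direction. An unadjusted p under 0.05 was found for 2 of the 6, against 8.85% of all genes. The members' median log2 fold change was -0.38, against 0.02 over all genes tested.

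**Figure D1:**
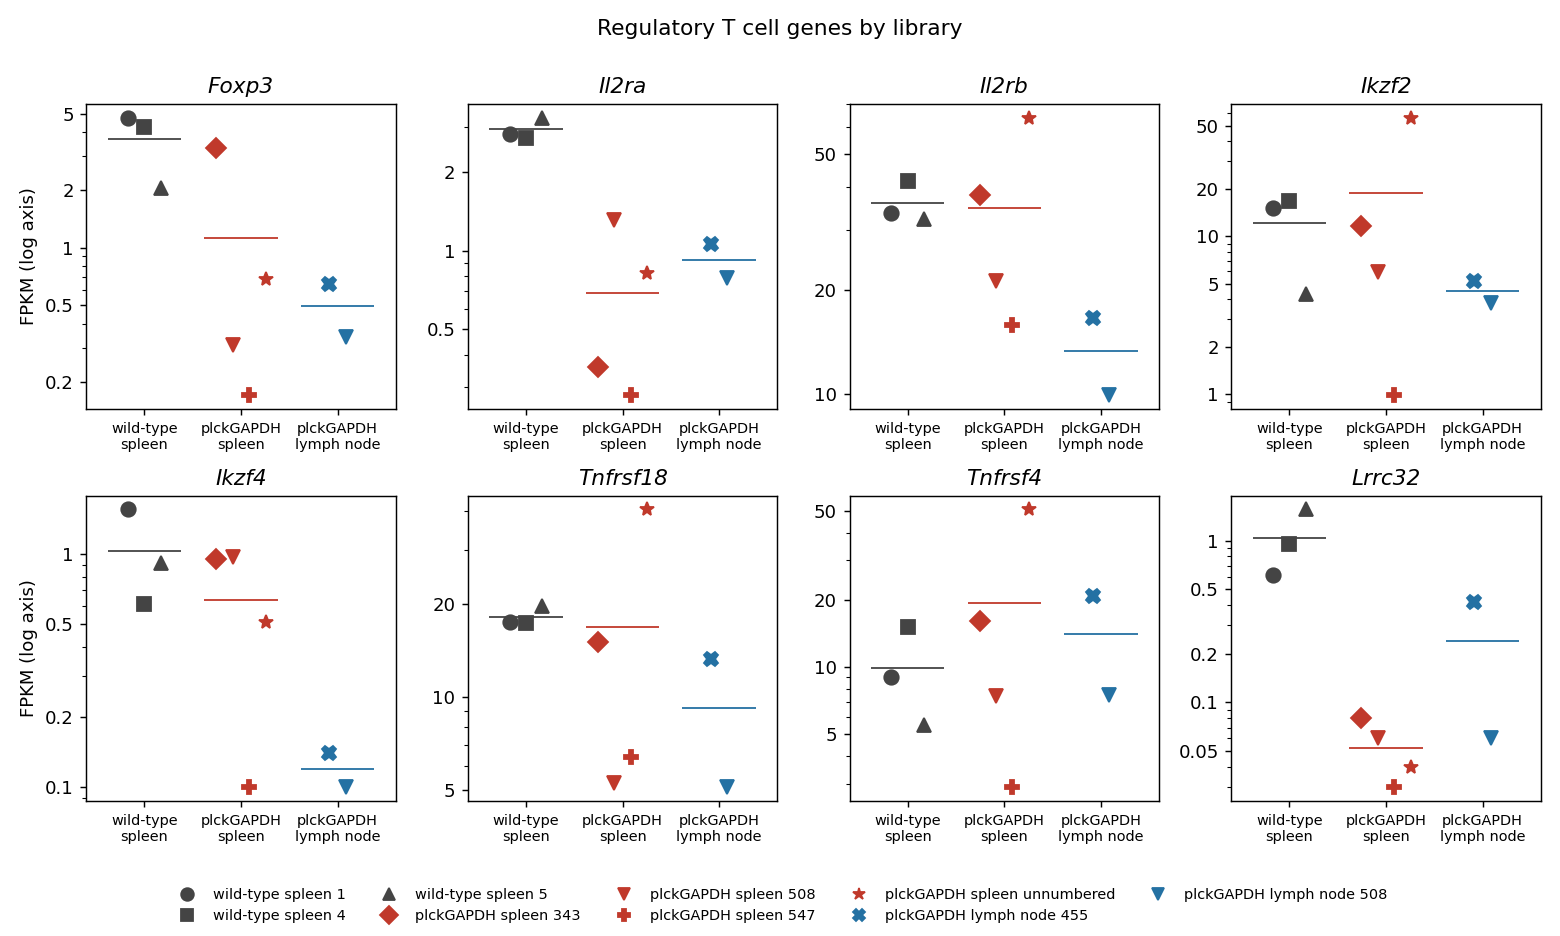
FPKM of the 8 regulatory T cell genes on log axes, by library; each symbol is 1 library, its shape gives the animal number, and the horizontal line is the mean of the group. Il2ra and Lrrc32 do not overlap between wild-type spleens and plckGAPDH spleens, and the unnumbered spleen (star) tops Il2rb, Ikzf2, Tnfrsf18 and Tnfrsf4.

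Foxp3 (chromosome X, 7573644 to 7595245, plus strand, GRCm38) was at 4.78, 4.26 and 2.04 FPKM in wild-type spleens 1, 4 and 5. In plckGAPDH spleens it was at 3.32 (343), 0.690 (unnumbered), 0.310 (508) and 0.170 FPKM (547). The last 3 of these lay below every wild-type spleen, whereas spleen 343 lay within the wild-type range, so the groups overlapped. Mean Foxp3 was 3.69 ± 1.46 FPKM (SD, n = 3) in wild-type and 1.12 ± 1.48 (SD, n = 4) in plckGAPDH spleens. On the log2 scale the difference was -1.31 (SE 0.46), and at an FDR of 0.336 in limma it was not called. Leaving out spleen 343 gave -1.72 (SE 0.39, FDR 0.0308 in limma), the only alternative in which a member was called. That fit called 2.16% of 12263 genes, or 265, the most of any alternative in the spleens. The FDR of Foxp3 spanned 0.0308 to 0.776 over 12 alternatives.

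In the lymph nodes, Foxp3 was at 0.650 (455) and 0.340 FPKM (508). Both values were below every wild-type spleen and below spleen 343. Without a wild-type lymph node, tissue and genotype cannot be told apart in the comparison with wild-type spleens. If its reads came from the longest annotated coding transcript, the Foxp3 values stood for about 21 fragments in spleen 547, 62 in the unnumbered spleen and 455 in wild-type spleen 1. For the shortest coding transcript these numbers were about 3, 8 and 61. Wild-type spleen 5, the lowest wild-type spleen for Foxp3, which lies on the X chromosome, was also the library with little Xist RNA, whose part was not tested. In whole tissue, fewer regulatory T cells and less Foxp3 RNA per cell cannot be told apart.

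Flicr, a noncoding RNA whose gene overlaps the 5′ part of Foxp3 on the same strand, was at 0.670, 0.550 and 0.420 FPKM in wild-type spleens 1, 4 and 5. In plckGAPDH spleens it was at 0.250 (343), 0.09 (547), 0.08 (unnumbered) and 0.03 FPKM (508). Spleen 343 was the highest transgenic spleen for this RNA too, here below all 3 wild-type spleens. Reads in the shared stretch could be assigned to either gene, and the sources used here do not say how, or whether strand was used. Ccdc22 and Ppp1r3f overlap Foxp3 on the opposite strand.

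The promoter sequences below are shown because the factors whose motifs were searched are known to act in T cell receptor and interleukin-2 signalling or to work with FOXP3. RefSeq promoter windows (GRCm38.p6) were matched for 4 of the 8 members, in 5 windows of 250 bases before an annotated start. The parts that hold no exon of a coding gene are printed, 5′ to 3′ on the plus strand. Capitals mark matches to any of 5 short motifs searched on both strands: TTCNNNGAA (STAT factors), GGAAAA (NFAT core), TGTGGT (RUNX), TGANTCA (AP-1) and TGTTTAC (forkhead).
Foxp3, chrX:7579426-7579566: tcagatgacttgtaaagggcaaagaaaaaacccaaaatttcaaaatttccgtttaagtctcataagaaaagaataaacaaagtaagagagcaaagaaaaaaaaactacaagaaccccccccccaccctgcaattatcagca
Foxp3, second start, chrX:7580233-7580482: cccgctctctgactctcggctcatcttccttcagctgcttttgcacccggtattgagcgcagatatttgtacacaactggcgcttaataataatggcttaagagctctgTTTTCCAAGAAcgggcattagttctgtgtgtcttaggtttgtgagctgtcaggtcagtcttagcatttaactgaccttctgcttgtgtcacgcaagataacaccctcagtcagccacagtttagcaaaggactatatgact
Il2ra, chr2:11642542-11642791: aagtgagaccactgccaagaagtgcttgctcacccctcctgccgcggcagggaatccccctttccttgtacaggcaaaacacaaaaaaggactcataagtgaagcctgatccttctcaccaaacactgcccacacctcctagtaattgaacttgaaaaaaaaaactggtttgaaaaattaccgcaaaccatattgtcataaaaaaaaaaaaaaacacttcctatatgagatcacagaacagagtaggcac
Tnfrsf18, chr4:156026072-156026163: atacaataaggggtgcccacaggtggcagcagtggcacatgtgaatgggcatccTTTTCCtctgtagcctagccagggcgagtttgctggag
Tnfrsf4, chr4:156013611-156013694: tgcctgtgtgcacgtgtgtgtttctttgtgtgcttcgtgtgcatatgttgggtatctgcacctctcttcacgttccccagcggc

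In the window of the second Foxp3 start, an NFAT core match and a STAT match overlap, beginning 141 and 139 bases before that start. STAT matches occur in 7.01% of 32817 RefSeq promoter windows of this length, and NFAT core matches in 20.4%. The Tnfrsf18 window has an NFAT core match 196 bases before its start and a STAT match at 99 bases, which lies in an annotated exon and is not printed. The windows of Il2ra, Tnfrsf4 and the first Foxp3 start hold none of the 5 motifs. RUNX, AP-1 and forkhead matches occur in 14%, 6.75% and 3.16% of all windows and in none of these 5. A match is a string of letters and was not measured as a binding site.

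Il2ra (chromosome 2, 11642807 to 11693193, plus strand), the chain that gives the interleukin-2 receptor its high affinity, was at 2.82, 2.72 and 3.25 FPKM in wild-type spleens 1, 4 and 5. In plckGAPDH spleens it was at 1.31 (508), 0.820 (unnumbered), 0.360 (343) and 0.280 FPKM (547). Every transgenic spleen lay below every wild-type spleen, and the wild-type spleens were close together. Groups did not overlap in 7.27% of all genes tested, and Il2ra was the only 1 of the 6 tested members among them. Mean Il2ra was 2.93 ± 0.282 FPKM (SD, n = 3) in wild-type and 0.693 ± 0.475 (SD, n = 4) in plckGAPDH spleens, which is -1.25 on the log2 scale (SE 0.32) and was not called (FDR 0.106 in limma). Its FDR spanned 0.0559 to 0.776 and its fold change -2.13 to -0.73 in the alternatives.

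Spleen 343, which had the most Foxp3 among the transgenic spleens, had nearly the least Il2ra. Il2ra was at 1.06 (455) and 0.790 FPKM (508) in the lymph nodes, below the wild-type spleens and within the range of the transgenic spleens. Il2ra is also made by activated T and B cells, and the part of those cells in these values was not tested.

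Il2rb (chromosome 15, 78479256 to 78495271, minus strand) was at 33.7, 41.9 and 32.2 FPKM in wild-type spleens 1, 4 and 5. It was at 63.9 (unnumbered), 37.9 (343), 21.3 (508) and 15.9 FPKM (547) in plckGAPDH spleens. The transgenic spleens lay on both sides of the wild-type spleens, and the log2 fold change of -0.23 had a 95% interval from -1.29 to 0.83 (limma FDR 0.985). It was -0.59 without the unnumbered spleen, -0.07 without spleen 508 and 0.06 without spleen 547. Natural killer markers were set beside it: 7 of the 8 lay on the negative side (median -2.16), and their sum was 108 to 250 FPKM in wild-type and 5.34 to 115 in plckGAPDH spleens. Gzma, a granzyme, and Klrd1, a receptor of natural killer and CD8 T cells, were called, at -3.04 (limma FDR 0.0404) and -2.80 (limma FDR 0.0486). Both calls ended when spleen 1 or 5 of the wild type or plckGAPDH spleen 508 was left out, where the FDR was 0.0555 to 0.293, and that of Klrd1 also without wild-type spleen 4, at 0.206. Neither gene was called with another pseudocount, filter or scaling or without the trend (FDR 0.0509 to 0.356). The part of natural killer cells in the Il2rb values was not tested.

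The rest of the interleukin-2 pathway was measured in the same fit. Of 15 genes, 14 were tested, 9 had positive and 5 negative fold changes, and limma called none of them. An unadjusted p under 0.05 was found for 2 of the 14, against 8.85% of all genes. The median was 0.20. Il2, the cytokine itself, was at 0 to 0.180 FPKM in all 9 libraries and was not tested. Il2rg, the gamma chain shared with other cytokine receptors, was at 104 to 124 FPKM in wild-type and 40.0 to 102 in plckGAPDH spleens (-0.84 on the log2 scale, SE 0.44, FDR 0.663 in limma). The unnumbered spleen held 102 FPKM and was just below the lowest wild-type spleen, so these ranges did not overlap. Stat5a, which carries the signal to the nucleus, was at 47.6 FPKM in the unnumbered spleen and 6.59 to 10.7 in the other spleens. Socs2 and Pim1, targets of STAT5, had the smallest p-values of the list, at 1.48 (limma FDR 0.528) and 1.09 (limma FDR 0.502). Cish and Bcl2, of the same list, were at -0.18 and 0.17. Spleens 508 and 547, with low Foxp3 and Il2rb, held 18.0 and 23.5 FPKM of Socs2, against 1.79 to 4.67 in the other spleens. The unnumbered spleen, with Foxp3 at 0.690 FPKM and the highest Il2rb, held 4.67 FPKM of Socs2.

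Ikzf2 (chromosome 1, 69531214 to 69687245, minus strand), whose product Helios is found in most thymus-derived regulatory T cells and in some activated T cells, was at 15.2, 16.8 and 4.34 FPKM in wild-type spleens 1, 4 and 5. It was at 56.6 (unnumbered), 11.6 (343), 5.93 (508) and 0.990 FPKM (547) in plckGAPDH spleens. The transgenic spleens held both the highest and the lowest value, and the log2 fold change was -0.21 (SE 0.88, limma FDR 0.991). The unnumbered spleen combined the highest Ikzf2 with a Foxp3 level of 0.690 FPKM. The sign of the Ikzf2 fold change turned when spleen 1 or 4 of the wild type was left out, to 0.04 and 0.10, and to 0.57 when plckGAPDH spleen 547 was. Leaving out the unnumbered spleen moved it most, to -1.05, and leaving out spleen 5 of the wild type gave -0.76. Gm28112 and Gm29112, noncoding genes within introns of Ikzf2 on the same strand, were also highest in the unnumbered spleen, at 4.35 and 1.87 FPKM.

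Ikzf4 (chromosome 10, 128630843 to 128645991, minus strand), which encodes a partner of FOXP3 in gene repression, was at 1.56, 0.610 and 0.920 FPKM in wild-type spleens 1, 4 and 5. It was at 0.970 (508), 0.960 (343), 0.510 (unnumbered) and 0.10 FPKM (547) in plckGAPDH spleens. The groups overlapped. Only 1 library reached 1 FPKM, so Ikzf4 was not tested under the filter, and with no filter its log2 fold change was -0.32 (SE 0.32, limma FDR 0.795). The lymph nodes held 0.140 (455) and 0.10 FPKM (508), so 3 of the 6 transgenic libraries were at or below 0.140 FPKM.

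Tnfrsf4 and Tnfrsf18 lie 9551 bases apart on chromosome 4 (156013843 to 156016612 and 156026164 to 156028895), both on the plus strand. Tnfrsf18 was at 17.5, 17.4 and 19.7 FPKM in wild-type spleens 1, 4 and 5. It was at 40.6 (unnumbered), 15.0 (343), 6.41 (547) and 5.27 FPKM (508) in plckGAPDH spleens. The wild-type spleens agreed closely for this receptor, and the transgenic spleens lay on both sides of them. The log2 fold change was -0.53 (SE 0.58, limma FDR 0.938). It was -1.08 (SE 0.48) without the unnumbered spleen, -0.17 without spleen 508 and -0.25 without spleen 547, and not called in any of these. Gm16008, an antisense gene across Tnfrsf18, was at 0.130 to 1.86 FPKM and was also highest in the unnumbered spleen.

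Tnfrsf4 was at 9.02, 15.1 and 5.49 FPKM in wild-type spleens 1, 4 and 5, and at 50.7 (unnumbered), 16.1 (343), 7.41 (508) and 2.90 FPKM (547) in plckGAPDH spleens. The order of the transgenic spleens was the same as for Ikzf2, with the unnumbered spleen first and 547 last. The log2 fold change was 0.36 (SE 0.72, limma FDR 0.983), and it was -0.30 without the unnumbered spleen. The ligands of these receptors were low: Tnfsf4 was at 0.10 to 2.76 FPKM and Tnfsf18 at 0.04 to 1.72 FPKM over all libraries. Of 6 ligands and adaptors of these receptors, 5 were tested, 4 had negative and 1 a positive fold change, and none was called (limma, 0 at an unadjusted p under 0.05).

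Lrrc32 (chromosome 7, 98489283 to 98502181, plus strand) separated the spleens of the genotypes. It was at 0.610, 0.960 and 1.56 FPKM in wild-type spleens 1, 4 and 5. In plckGAPDH spleens it was at 0.08 (343), 0.06 (508), 0.04 (unnumbered) and 0.03 FPKM (547). Every transgenic spleen lay below every wild-type spleen, and spleen 343 did not stand apart from the other transgenic spleens as it did for Foxp3. Lrrc32 and Il2ra were the 2 of 8 members without overlap in FPKM, against 5.36% of the 31973 genes above 0 in any spleen. If reads came from the longest coding transcript, these levels were about 70 to 172 fragments in wild-type and 4 to 9 in plckGAPDH spleens. For the shortest coding transcript they were about 3 to 7 and, rounded, 0. Only 1 library reached 1 FPKM, so Lrrc32 was not tested under the filter. With no filter, the log2 fold change was -0.93 (SE 0.18, limma FDR 0.164), a scale on which changes of such low values are understated.

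Lymph node 455 held 0.420 FPKM of Lrrc32, more than any transgenic spleen, and lymph node 508 held 0.06, the same as the spleen of that animal. Platelet and endothelial genes were set beside these values. The 6 platelet markers summed to 0.440 to 87.4 FPKM in wild-type and 1.64 to 11.5 in plckGAPDH spleens, and Pf4, Gp9, Gp1bb and Gp5 were each listed at 0 in at least 1 library. The 6 endothelial markers summed to 16.8 to 64.7 and 7.99 to 32.1 FPKM. Pecam1 made up most of these sums, at 14.8 to 52.1 and 7.58 to 29.3 FPKM. Cdh5 was at 0.320 to 1.25 and 0.09 to 0.560 FPKM. Kdr, a receptor of endothelial cells, was at 0.840 to 0.900 FPKM in wild-type and 0.03 to 0.830 in plckGAPDH spleens. Its groups did not overlap either, like 5.36% of the 31973 genes above 0 in any spleen, but the unnumbered spleen was just below the wild-type range. That spleen held 0.830 FPKM of Kdr, 29.3 of Pecam1, 1.71 of Stab2, 0.280 of Cdh5, 0.04 of Emcn and 0.01 of Tek, and 0.04 of Lrrc32. Tek was listed at 0 in lymph node 455 only. None of the platelet or endothelial markers tested was called (limma, 0 of 5 at an unadjusted p under 0.05), and the part of platelets or endothelium in the Lrrc32 values was not tested.

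**Figure D2:**
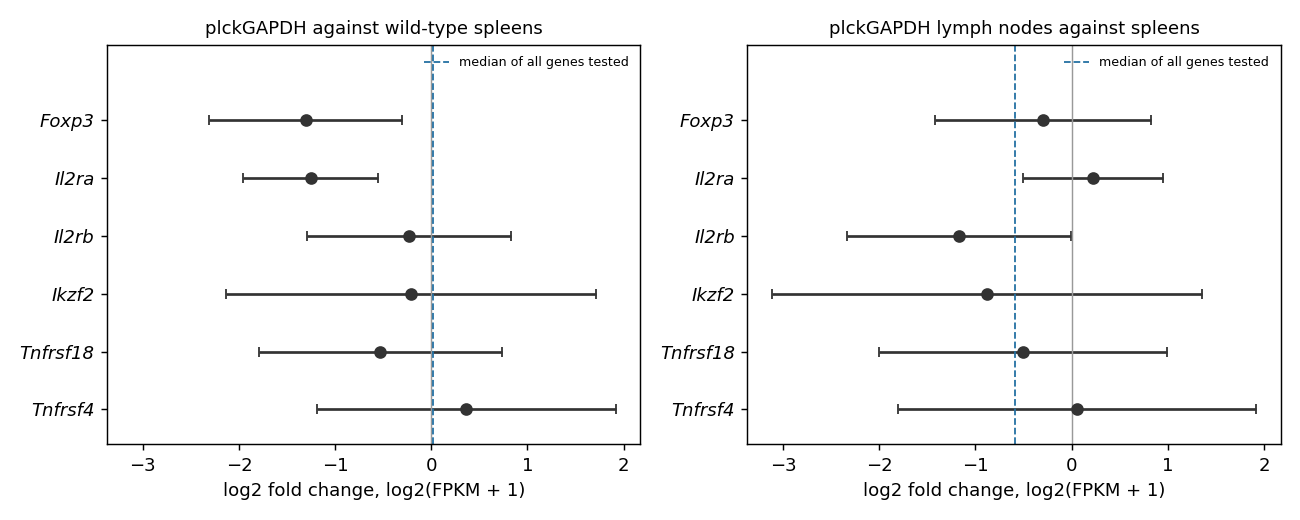
Log2 fold changes of the 6 members tested, with 95% intervals from limma, for plckGAPDH against wild-type spleens (left) and plckGAPDH lymph nodes against plckGAPDH spleens (right); the dashed line is the median of all genes tested. Foxp3 and Il2ra lie at -1.31 and -1.25 on the left with intervals below 0 that are not adjusted for the number of genes tested, and no member was called.

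The amount of T cell RNA differed between libraries, so each member was also set against the mean FPKM of the T cell receptor genes Cd3d, Cd3e and Cd3g. That mean was 35.2 to 70.4 FPKM in wild-type spleens, 13.9 to 120 in plckGAPDH spleens and 14.5 to 30.1 in the lymph nodes. Between the spleens, all 12 T cell markers lay on the negative side (median -0.69), and limma called none (0 at an unadjusted p under 0.05). Foxp3 was at 13.6%, 6.05% and 2.90% of the CD3 mean in wild-type spleens 1, 4 and 5. It was at 10.4% (343), 2.23% (508), 0.738% (547) and 0.573% (unnumbered) in plckGAPDH spleens, and at 2.16% and 2.35% in lymph nodes 455 and 508. The unnumbered spleen, with the most CD3 RNA, thus had the least Foxp3 per CD3 RNA.

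Lrrc32 stayed separated on this scale, at 1.36% to 2.22% in wild-type and 0.0332% to 0.431% in plckGAPDH spleens, and it was the only 1 of the 8 members whose spleens did not overlap. Of the 31973 genes above 0 in any spleen, 3.37% did not overlap on this scale. Il2ra no longer separated the genotypes, because spleen 508 was at 9.41% against 3.86% to 8.0% in wild-type spleens, while the other 3 transgenic spleens were at 0.682% to 1.22%. Tnfrsf18 varied least, from 24.7% to 49.7% over all 9 libraries. Tnfrsf4 ran from 7.81% in wild-type spleen 5 to 68.8% in lymph node 455, and Ikzf2 from 4.30% in spleen 547 to 47.0% in the unnumbered spleen. With all genes scaled to these CD3 genes, none of the 7 members tested was called (limma, smallest FDR 0.776). On that scale the median of all genes was 0.64, and Il2rb, Ikzf2 and Tnfrsf18 turned from negative to 0.48, 0.34 and 0.13, all still below that median.

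**Figure D3:**
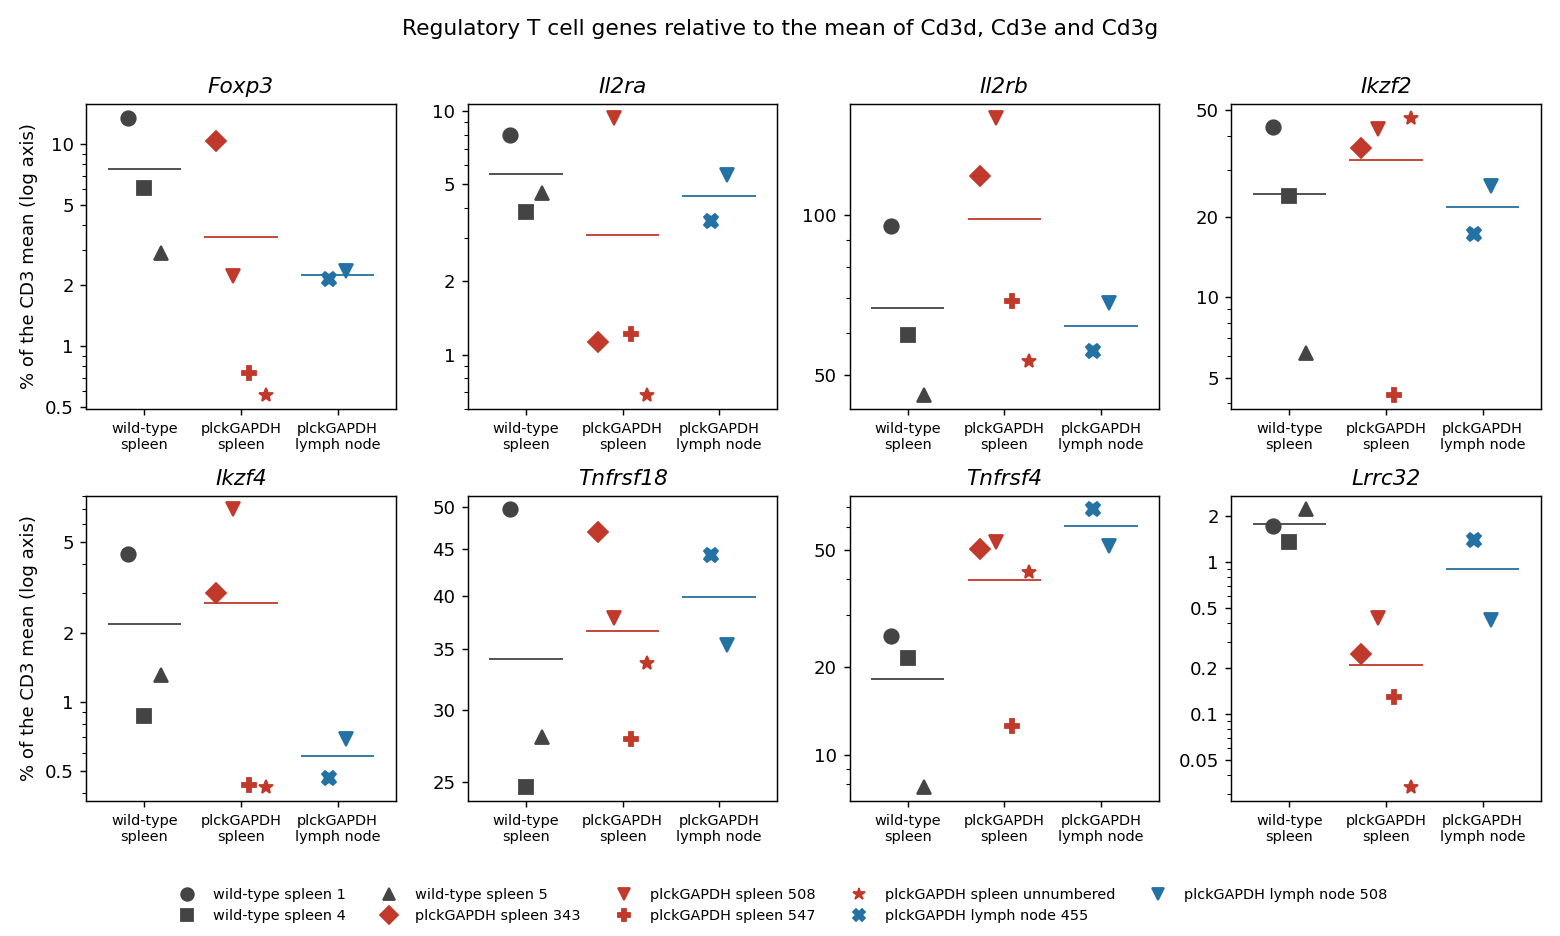
Each member as a percent of the mean FPKM of Cd3d, Cd3e and Cd3g in the same library, on log axes; symbols and lines are as in the plot of FPKM by library. Lrrc32 alone separates the spleens of the genotypes, and Foxp3 lies at 2.90% to 13.6% in wild-type and 0.573% to 10.4% in plckGAPDH spleens.

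Other genes linked to regulatory T cells lay on both sides. Of 29 such genes, 27 were tested in the spleens, 13 had positive and 14 negative fold changes, with a median of -0.01. An unadjusted p under 0.05 in limma was found for 5 of the 27, against 8.85% of all genes. Satb1, a chromatin organiser that FOXP3 represses, was the 1 gene called, at 27.0 to 57.8 FPKM in wild-type and 1.79 to 9.33 in plckGAPDH spleens (-2.80 on the log2 scale, SE 0.51, FDR 0.0137 in limma). That call ended without wild-type spleen 4 (FDR 0.0662) or 5 (0.105), with no filter (0.156) and with scaling to CD3 genes (0.368). Itgae (CD103), an integrin of tissue regulatory T cells and dendritic cells, was at 3.46 to 4.31 and 0.230 to 1.36 FPKM (-1.47, limma FDR 0.0502).

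Ctla4, the checkpoint receptor that regulatory T cells use to limit costimulation, was at 8.0, 25.5 and 3.93 FPKM in wild-type spleens 1, 4 and 5. It was at 37.3 (unnumbered), 18.3 (343), 12.5 (508) and 11.3 FPKM (547) in plckGAPDH spleens, which is 0.83 on the log2 scale (FDR 0.832 in limma). It was at or above 9.22 FPKM in every transgenic library, the lymph nodes included. Icos, a costimulatory receptor shared with follicular helper T cells, reached 82.6 FPKM in the unnumbered spleen and was at 0.740 in spleen 547. Gpr83, a receptor enriched in regulatory T cells, was at 0.320 to 1.45 FPKM in wild-type spleens and 0 to 0.150 in plckGAPDH spleens and was too low to be tested.

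Within each library, the levels of these genes were set against Foxp3. Ctla4 was 1.67, 5.99 and 1.93 times the Foxp3 level in wild-type spleens 1, 4 and 5, and 5.50 times in spleen 343. In the other transgenic spleens it was 40.5 (508), 54.0 (unnumbered) and 66.3 times (547), and in the lymph nodes 26.3 (455) and 27.1 times (508). Tnfrsf4 showed the same split, at 1.89 to 3.54 times in wild-type spleens, 4.86 times in spleen 343 and 17.1 to 73.5 times in the other 5 transgenic libraries. The Ikzf2 level was 2.13 to 3.94 times that of Foxp3 in wild-type spleens, 3.50 times in spleen 343, 5.82 to 19.1 times in the other numbered libraries of plckGAPDH mice and 82.0 times in the unnumbered spleen. These ratios share Foxp3 as their denominator and are given as a description, with no test.

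**Figure D4:**
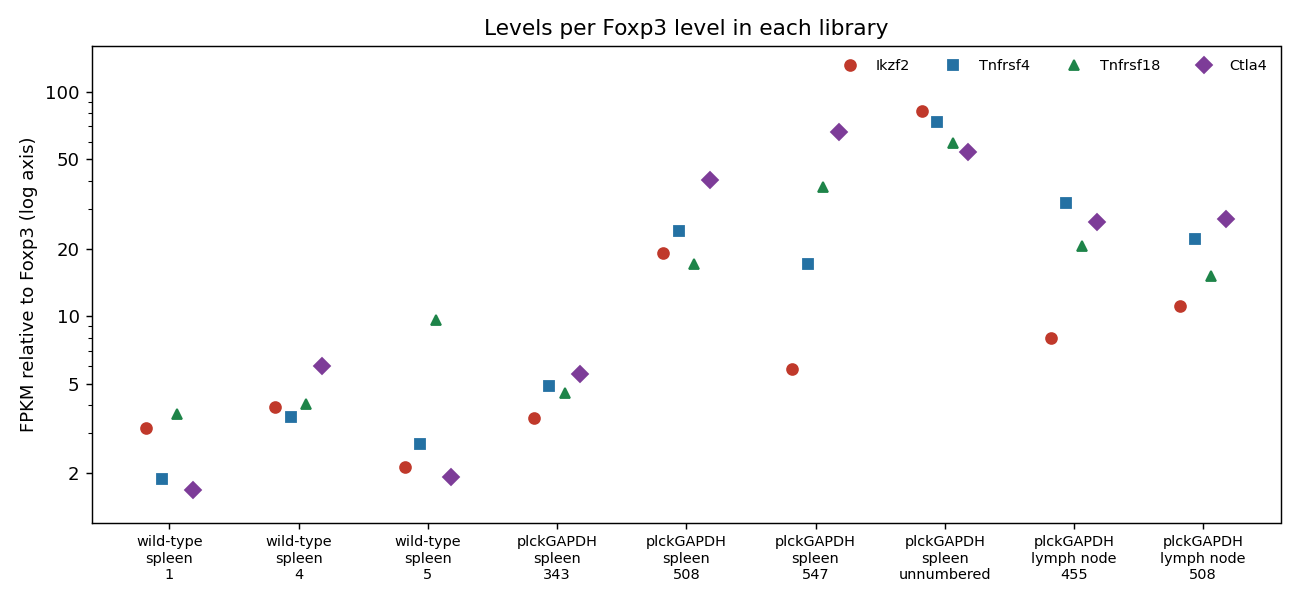
FPKM of Ikzf2, Tnfrsf4, Tnfrsf18 and Ctla4 divided by the FPKM of Foxp3 in the same library, on a log axis; each column is 1 library. Wild-type spleens and plckGAPDH spleen 343 lie between 1.67 and 9.65, and Tnfrsf4, Tnfrsf18 and Ctla4 lie at 15.0 or more in the other 5 libraries.

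The genes closest to Foxp3 in profile were found by the root mean square difference of centred log2(FPKM + 1) values over the 9 libraries, among 12834 genes. They were Gm26581 (0.22), RP24-349N15.2 (0.33), Gm26804 (0.34), Gm12543 (0.34) and A330044P14Rik (0.35), differences on the log2 scale. All are gene models with provisional names. Gm26581 was at 4.35, 2.90 and 1.38 FPKM in wild-type spleens 1, 4 and 5, at 2.47 in spleen 343 and at 0.05 to 0.800 in the other 5 libraries.

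Lymph nodes and spleens of plckGAPDH mice were compared within 1 fit of all 9 samples, which counts both samples of animal 508 as separate. None of the 6 members tested was called with limma, where 0.0146% of 13682 genes were called, and 1 of the 6 had an unadjusted p under 0.05, against 11.3% of all genes. No member was without overlap between these groups, against 30.5% of all genes. Over all genes the median log2 fold change was -0.59, and the median of the members was -0.40. Median-of-ratios scaling, which brought the median of all genes to 0.00, turned Tnfrsf18 to 0.21 and gave -0.04 for Foxp3, 0.57 for Il2ra and -0.43 for Il2rb. Unscaled, Foxp3 was at -0.30 (SE 0.51, limma FDR 0.671), or 0.11 without spleen 343, and Il2ra at 0.22 (SE 0.33, limma FDR 0.630). The value nearest to a call was that of Il2rb, at 16.7 (455) and 9.90 FPKM (508) in the lymph nodes and -1.17 (SE 0.53, limma FDR 0.359). Tnfrsf4 was at 20.7 and 7.50 FPKM, Tnfrsf18 at 13.3 and 5.11, and Ikzf2 at 5.20 and 3.77. Lymph node 455 was the higher of the lymph nodes for all 8 members. The titles differ (455_MES and 508_LN), so the site of the lymph node may differ with the animal.

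In animal 508, the spleen and the lymph node lay close together for 4 members and further apart for the other 4. Tnfrsf4 was at 7.41 and 7.50 FPKM, Tnfrsf18 at 5.27 and 5.11, Foxp3 at 0.310 and 0.340 and Lrrc32 at 0.06 in both. Ikzf4 was at 0.970 and 0.10 FPKM, Il2rb at 21.3 and 9.90, Il2ra at 1.31 and 0.790 and Ikzf2 at 5.93 and 3.77, each higher in the spleen. The CD3 mean was 13.9 FPKM in the spleen and 14.5 in the lymph node of this animal. With 1 library of each tissue, these differences have no replicate check.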

How the data were processed

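RNA of 9 samples was measured as FPKM. Per the labels' protocols, total RNA of splenocytes was made into stranded total RNA libraries and sequenced as paired reads of 75 bases. The build was mm10, per the submitters' processing notes, which also list Bowtie2 2.2.6, RSEM, STAR 2.4.0a, Subread 1.5.0-p3 and featureCounts with no role. For the deposited FPKM, the tool and the annotation are not given in these sources. FPKM are scaled by all counted fragments, so abundant RNAs, such as that of mt-Rnr2 at 148455 to 344361 FPKM, lower every other gene of their library.

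Columns were matched to samples by title, except 1 that names only its group. Depth was estimated from single-transcript genes of 500 to 900 bases (GENCODE M21) under 0.5 FPKM, whose values lie on whole fragments: 79.0% to 84.9% did within 0.03 fragments and rounding, against 18.8% to 24.1% by chance. Tested on simulated data (3 libraries), the estimate was off by at most 1.11%. No count test was run. limma 3.58.1 in R 4.3.3, with an intensity trend, was fitted on log2(FPKM + 1) over all genes with 1 FPKM in 3 spleens (spleens) or 2 samples (all 9 samples). The spleen fit was tested on simulated data with 200 genes changed at each size. It recovered 0% of them at a log2 change of 1, 24.5% at 2, 74% at 3 and 90.5% at 4. Alternatives were a pseudocount of 0.1, no filter, median-of-ratios scaling, scaling to CD3 genes, no trend and leaving out samples. The members, gene lists and tests were chosen with earlier results of these data known. Named genes were all members, called genes of the lists, reference genes and the 5 genes nearest to Foxp3. Itgae, Icos, Gpr83, Stat5a, Socs2, Pim1, Cdh5, Kdr, Tek, Xist, S100a8 and overlapping genes were named after their values were seen. Gene coordinates are those of GENCODE M21.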

Additional observations from a re-analysis of the deposited data

Results flagged for a closer look

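Among 16 sets of 4 plckGAPDH spleens checked for a sample far from the others (8 members, in FPKM and as a percent of the CD3 mean), 3 held one. Chance gives about 1 in 20 for normally distributed values, which 4 spleens cannot show. The check used values that were not on a log scale, and all 3 flagged values were the highest of their set. Foxp3 in spleen 343, at 3.32 FPKM and at 10.4% of the CD3 mean, lay above the other transgenic spleens by more than the Dixon limit of 0.829 of the range. These values share the Foxp3 measurement and count once. Il2ra in spleen 508, at 9.41% of the CD3 mean, lay above the other transgenic spleens by the same rule; the CD3 mean of that spleen, 13.9 FPKM, was the lowest of the 7 spleens.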

How the results depend on the processing

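No paired analysis was possible because the groups share only animal 508. The count of members called between the spleens was 0 in all alternatives except 1, and leaving out each spleen in turn gave 0 to 1, the 1 being Foxp3 without plckGAPDH spleen 343. Between lymph nodes and spleens it was 0 throughout. Of 76 values recomputed in the spleens for the 6 members of the main fit, 67 kept direction and side of the threshold, 8 changed sign without a call and 1 passed. Of 66 such values for the lymph nodes, 58 stayed and 8 changed sign. Ikzf4 and Lrrc32, with no value in the main fits, are not in these counts. Foxp3 and Il2ra were negative in all 12 alternatives that tested them in the spleens; without both wild-type spleens 4 and 5 they did not reach the filter. Over all genes, 181 were called in the spleens, 74 with no filter, 90 and 72 without wild-type spleen 4 or 5, 110 without wild-type spleen 1 and 12 without both 4 and 5, but 265, 213 and 209 without plckGAPDH spleen 343, the unnumbered spleen or 547. The Foxp3 call came in the fit with 265. Between lymph nodes and spleens the 2 calls became 5 with a pseudocount of 0.1 or no filter, 1 with median-of-ratios scaling or without spleen 343, 4 without spleen 547, 0 without lymph node 455, 89 with CD3 scaling, 24 without spleen 508 and 28 without lymph node 508. Levels under 1 FPKM can rest on few fragments, depending on the length of the transcript, and changes there are understated by the log2(FPKM + 1) scale.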
